A study of Homo sapiens with 688 samples.

Results

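The tubulin genes described here are the 10 alpha- and beta-tubulin genes TUBA1A, TUBA1B, TUBA1C, TUBA4A, TUBB, TUBB2A, TUBB2B, TUBB3, TUBB4B and TUBB6, chosen by symbol from the 28957 gene symbols listed across all deposited count tables. Every table listed all 10. They were followed across drug-treated cells because alpha- and beta-tubulin mRNAs are known to be degraded when the pool of unpolymerized tubulin rises, and the series holds several drugs that bind tubulin. Counts are given as CPM, a gene's count scaled to a library total of 1000000.

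The study used PLATE-Seq, a low-depth method that reads the 3′ ends of polyadenylated mRNA from barcoded wells, in 3 human cancer cell lines. BT20 cells, a line from a breast carcinoma, were treated for 6 h with vehicle (DMSO) or with albendazole at 0.56 µM, aprepitant at 2 µM, bortezomib at 0.044 µM, crizotinib at 7.16 µM, gemcitabine at 0.194 µM, idarubicin at 0.084 µM or mitoxantrone at 0.18 µM, in 12 wells per condition. Part of the same lysates was also sequenced by TruSeq, a conventional full-length RNA-Seq protocol, as 2 pools of 6 wells per condition, so the TruSeq pools and the PLATE-Seq wells are not independent cultures. U87 cells, a glioblastoma line, were screened for 24 h with 184 compounds in 2 sets of 92, each set in duplicate plates (A and B) with 1 well per compound, 2 DMSO wells and 2 untreated wells per plate. By the study's methods, lysates of 2 culture wells were pooled into each of these U87 wells. LNCaP cells, a prostate carcinoma line, were untreated in 2 plates of 96 wells. The study's methods split each LNCaP lysate between 2 RNA preparations, so same-numbered wells of these plates may come from 1 culture. The labels do not say which plate had which preparation. Nothing in the labels says that wells of a plate came from separate cultures, so p-values measure the spread between wells or pools, which may be technical. In a bulk lysate, fewer cells with a transcript and less of it per cell cannot be told apart.

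Alpha- and beta-tubulin form the dimers that build microtubules. In the pathway called tubulin autoregulation, excess free dimers lead the factor TTC5 to recognize the first amino acids of a nascent tubulin chain on the ribosome (methionine, arginine and glutamate, then cysteine in alpha- or isoleucine in beta-tubulin), and TTC5, with the scaffold SCAPER, brings the CCR4-NOT deadenylase complex to the mRNA, which is then degraded. Vinca alkaloids, colchicine-site ligands and benzimidazoles such as albendazole prevent polymerization and raise free tubulin, whereas taxanes and epothilones stabilize microtubules and lower it. Gamma-tubulin, which nucleates microtubules at the centrosome, is not part of this control.

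The start of the coding sequence is the stretch that this pathway reads, so the first 24 coding bases are shown for 1 gene of each distinct sequence, from the GENCODE annotation of the GRCh37 (hg19) genome, with codons 2 to 4 in capitals. TUBA1A, TUBA1B and TUBA1C had an identical start, as had TUBB3 and TUBB6, and gamma-tubulin TUBG1 is given for contrast.
TUBA1A: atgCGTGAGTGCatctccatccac
TUBA4A: atgCGTGAATGCatctcagtccac
TUBB: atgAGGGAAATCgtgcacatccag
TUBB2A: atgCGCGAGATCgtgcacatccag
TUBB2B: atgCGTGAGATCgtgcacatccag
TUBB3: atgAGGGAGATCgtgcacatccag
TUBB4B: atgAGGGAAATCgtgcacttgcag
TUBG1: atgCCGAGGGAAatcatcacccta
In all 10 members codon 2 was an arginine codon and codon 3 a glutamate codon, and codon 4 was TGC (cysteine) in the 4 alpha genes and ATC (isoleucine) in the 6 beta genes. TUBG1 had a proline codon, CCG, at position 2, so its arginine and glutamate codons lie 1 codon further on.

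TUBA1B, TUBA1A and TUBA1C neighbor one another on chromosome 12, at chr12:49521565-49525180 and chr12:49578469-49582863 on the minus strand and chr12:49582519-49668383 on the plus strand. TUBA4A lies at chr2:220114432-220142624 on the minus strand. Of the beta genes, TUBB lies at chr6:30685212-30693315 (plus), TUBB2A at chr6:3153731-3157778 (minus), TUBB2B at chr6:3223558-3231964 (minus), TUBB3 at chr16:89987800-90005169 (plus), TUBB4B at chr9:140135739-140138159 (plus) and TUBB6 at chr18:12307668-12344319 (plus). The coding sequences of TUBA1A and TUBA1B were 97.2% identical, those of TUBA1B and TUBA1C 96.8% and those of TUBB2A and TUBB2B 98.1%. The authors counted uniquely mapped reads, and of the 50-base windows in the last 500 bases of the transcript, where PLATE-Seq reads fall, 49.9% of TUBA1B, 28.8% of TUBA1A, 55.4% of TUBB2A and 22.8% of TUBB4B also occurred in another annotated gene, so counts of these genes carry that uncertainty. For TUBB3 the share was 98.9%, or 21.5% once an overlapping read-through gene model was set aside, and for TUBA1C, TUBA4A, TUBB, TUBB2B and TUBB6 it was 0%.

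Library totals had a median of 24692226.5 counts in the TruSeq pools and lay between 367848 and 1317952 in the BT20 PLATE-Seq wells, and the wells of the LNCaP and U87 plates were shallower, with plate medians between 396426 and 765536. The cell line labels were checked against defining markers. KRT8, KRT18, EPCAM, CDH1 and EGFR had medians of 150.8 CPM or more in BT20 DMSO wells, with KRT19 at 0. KLK3, KLK2, TMPRSS2 and FOLH1 had medians from 31.8 to 839 CPM in LNCaP, and medians of 0 in BT20 and U87. VIM, CD44, TNC, FN1 and CAV1 had medians of at least 54.5 CPM in U87, where KLK3 and FOLH1 were at 0. Not all of these markers set the lines apart. CDH1 was higher in LNCaP (median 310.5 CPM) than in BT20 (150.8 CPM). EPCAM had a median of 112.5 CPM in LNCaP, and EGFR 169.9 CPM in untreated U87 wells. CD44 and CAV1 had medians of 166.3 and 111.9 CPM in BT20 DMSO wells.

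With albendazole, 4 tubulin mRNAs fell in the deep TruSeq libraries of BT20: TUBA4A, TUBB, TUBA1C and TUBA1B, to between 74.0% and 88.0% of the DMSO level. TUBB, the main beta isotype of dividing cells, had 1606 and 1630 CPM in the 2 DMSO pools and 1306 and 1227 CPM in the 2 albendazole pools. TUBA4A, an alpha isotype whose gene stands apart from the chromosome 12 cluster, had 175 and 182 CPM with DMSO and 137 and 126 CPM with albendazole. For both genes every albendazole pool lay below every DMSO pool. TUBA1C went from 402 and 430 CPM to 361 and 347 CPM, and TUBA1B, a broadly expressed alpha isotype, from 475 and 498 CPM to 433 and 419 CPM, again with no overlap. The log2 fold changes (edgeR quasi-likelihood test, Benjamini-Hochberg adjusted over 14970 genes) were −0.43 for TUBA4A (SE 0.05, adjusted p = 4.8e-06), −0.35 for TUBB (SE 0.04, adjusted p = 4.8e-06), −0.23 for TUBA1C (SE 0.04, adjusted p = 7.08e-04) and −0.18 for TUBA1B (SE 0.04, adjusted p = 0.0034). Of 9 members tested, 4 were thus called lower and 0 higher (0 higher also at an unadjusted p under 0.05 and by DESeq2), where 4.3% of all genes tested were called lower and 7.0% higher. That share, 644 genes lower and 1048 higher, depended on which pool was left out. It was far smaller without the first albendazole pool or the first DMSO pool, and changed less without the second pool of either. Such fits leave 1 pool in a group. The median log2 fold change of the 9 members was −0.18, beside 0.01 over all genes tested.

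The other 5 members tested in TruSeq were not called with albendazole. TUBB4B had 572 and 638 CPM with DMSO and 585 and 533 CPM with albendazole (log2 fold change −0.11), and TUBB6 had 48.1 and 49.4 CPM against 43.8 and 47.1 CPM (−0.09). TUBB3, the beta isotype typical of neurons, gave 14.5 and 16.7 CPM against 17.1 and 14.2 CPM, and TUBA1A gave 23.3 and 24.2 CPM against 24.7 and 22.3 CPM, so their pools overlapped. TUBB2A was listed at 3.78 and 4.85 CPM with DMSO and 3.91 and 3.41 CPM with albendazole, and TUBB2B, the tenth member, at 0 in all 16 pools. TUBG1, which lacks the start read by the pathway, had 97.7 and 99.2 CPM with DMSO and 96.3 and 96.0 CPM with albendazole (log2 fold change −0.03, SE 0.05, adjusted p = 0.77).

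**Figure D1:**
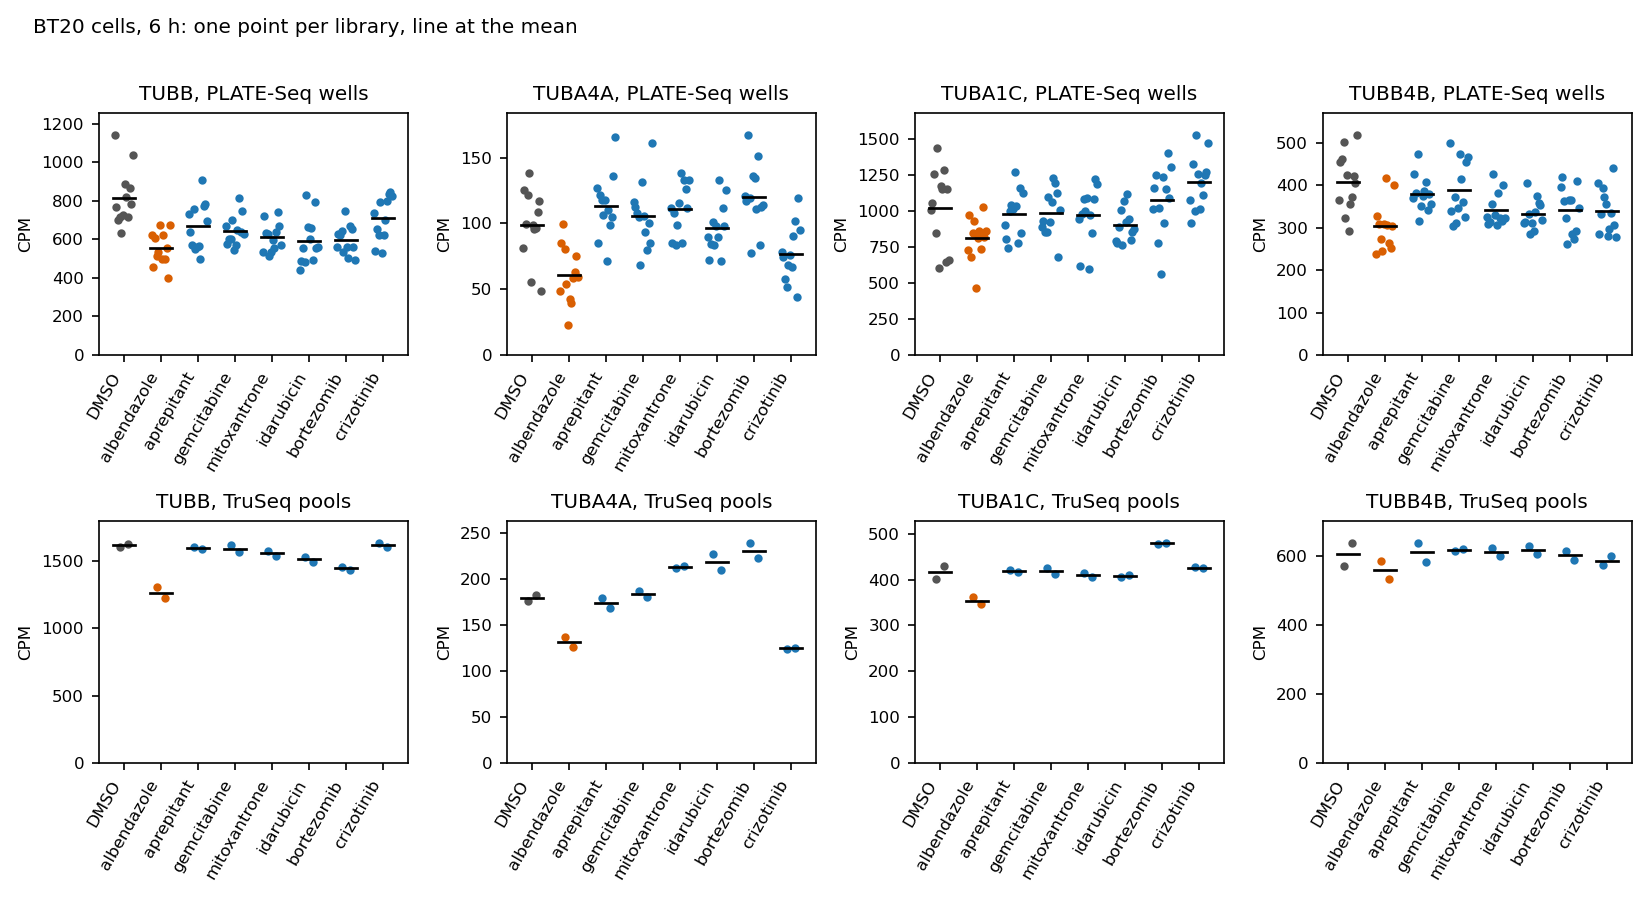
TUBB, TUBA4A, TUBA1C and TUBB4B in BT20 cells by treatment: each point is 1 PLATE-Seq well (top row, 12 wells per condition) or 1 TruSeq pool of 6 wells (bottom row, 2 per condition), the vertical axes are CPM starting at 0, and bars mark group means. In TruSeq both albendazole pools of TUBB (1306 and 1227 CPM) and TUBA4A (137 and 126 CPM) lie below both DMSO pools, and in PLATE-Seq the DMSO wells of TUBB have the highest mean of all 8 conditions.

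In the PLATE-Seq wells of the same lysates TUBB was lower than with DMSO by a like amount, with a wider error. It was also lower there with bortezomib, idarubicin and mitoxantrone, as described below. Over the 12 DMSO wells TUBB ranged from 631 to 1142 CPM with a median of 775 CPM, and over the 12 albendazole wells from 397 to 677 CPM with a median of 546 CPM, so that the ranges touched only between 631 and 677 CPM. The log2 fold change was −0.40 (SE 0.09) with an adjusted p of 0.0602 by edgeR, short of the threshold of 0.05, and 0.0679 by DESeq2. It passed when all 96 wells were fitted together (adjusted p = 0.024), without the filter on low counts (0.00526), and without wells under 0.5 times the plate's median total (0.0203), and it was 0.0977 without the 6 most abundant symbols, which held 39.2% of counts with DMSO and 44.6% with albendazole. TUBA4A had a median of 99.0 CPM with DMSO (48.3 to 138.6) and 59.1 CPM with albendazole (22.9 to 99.8). TUBA1C had 1103 CPM (608 to 1441) and 836 CPM (465 to 1029), and TUBB4B, the beta isotype found in cilia and in most dividing cells, 413 CPM (291 to 519) and 305 CPM (239 to 417). For these 3 genes the wells of the conditions overlapped. Of 6 members tested, 0 were called (3 were lower at an unadjusted p under 0.05, and DESeq2 called 0), where 0.0167% of the 5990 genes tested were called lower and 0.0835% higher.

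TUBA1B could not be followed in the BT20 PLATE-Seq wells. It had a mean of 1.96 CPM (SD 2.41, n = 12) in DMSO wells, at most 9 counts in a well, against 487 CPM in the TruSeq pools of the same lysates and a median of 23180 CPM in LNCaP wells. TUBA1A had a median of 9.26 CPM in the same wells, TUBB2A 3.00 CPM and TUBB2B 0. What lowers TUBA1B in that table was not tested.

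Other drugs than albendazole also went with a lower TUBB level in the BT20 wells. TUBB was called lower with bortezomib, a proteasome inhibitor (median 592 CPM, range 493 to 745, log2 fold change −0.34, SE 0.09, adjusted p = 0.0138), with the topoisomerase II inhibitors idarubicin (559 CPM, 440 to 829, −0.39, SE 0.10, adjusted p = 0.00963) and mitoxantrone (614 CPM, 515 to 742, −0.36, SE 0.09, adjusted p = 0.0151), each the single member called of 6, where 1.99%, 1.93% and 1.05% of genes were called lower and 2.94%, 0.85% and 0.159% higher. With crizotinib, where 0.954% of genes were called lower and 1.09% higher, and with aprepitant and gemcitabine, where 0.0% were, edgeR and DESeq2 called 0 of 6 members, with 5, 1 and 1 at an unadjusted p under 0.05. The DMSO wells had the highest median of TUBB of all 8 conditions, and all 7 comparisons share them. A comparison chosen after these values were seen therefore set albendazole against the mean of the other 6 drugs. In the wells it called TUBA4A lower (log2 difference −0.67, SE 0.12, adjusted p = 9.4e-05), 1 of 7 members tested where 0.148% of genes were called lower and 0.375% higher, while TUBB differed by −0.10 and was not called. In the TruSeq pools all 9 members tested were called lower than in the other 6 drugs, where 6.11% of genes were (8.14% were higher), with TUBA4A at −0.51 (SE 0.04), TUBB2A at −0.48 (SE 0.12), TUBB3 at −0.42 (SE 0.07), TUBB at −0.30 (SE 0.03), and TUBA1B and TUBA1C at −0.27 (SE 0.03 each). TUBG1 was called lower there too, by a log2 difference of −0.11 (SE 0.04, adjusted p = 0.0411). That difference contains what the other drugs did to these genes, described next.

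Some of the other drugs raised tubulin mRNAs in TruSeq. Bortezomib raised 7 of 9 members tested and lowered 0 (1 at an unadjusted p under 0.05, 0 by DESeq2), where 19.6% of genes were called lower and 21.3% higher. TUBB2A went from 3.78 and 4.85 CPM to 8.17 and 8.91 CPM (log2 fold change 1.06, SE 0.13, adjusted p = 5.06e-08) and TUBB3 from 14.5 and 16.7 CPM to 26.5 and 26.3 CPM (0.83, SE 0.09). TUBA4A, TUBA1A, TUBA1C, TUBA1B and TUBB6 rose by 0.44, 0.40, 0.27, 0.22 and 0.19, and TUBB, at 1455 and 1436 CPM, was not called (−0.09, adjusted p = 0.0579). Idarubicin raised 5 members, where 18.9% of genes rose, and lowered TUBB (1531 and 1495 CPM, −0.12, adjusted p = 0.0189), where 18.4% of genes fell. TUBB3 showed the widest change there, to 34.2 and 31.3 CPM (1.05, SE 0.09, adjusted p = 1.16e-11). Mitoxantrone raised TUBB3 (0.89) and TUBA4A (0.21), 2 of 9 members, where 15.6% of genes rose and 15.1% fell, so that count is near the share of all genes. With mitoxantrone 1 member was lower at an unadjusted p under 0.05, and DESeq2 called 1 lower.

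Crizotinib, a kinase inhibitor, lowered 3 members in TruSeq, where 20.6% of genes fell, and these were not the genes lowered by albendazole except for TUBA4A. TUBA4A had 124 and 125 CPM (log2 fold change −0.48, SE 0.05), TUBB3 9.36 and 9.16 CPM (−0.71, SE 0.11) and TUBB6 38.9 and 37.3 CPM (−0.32, SE 0.06), while TUBB stayed at 1634 and 1601 CPM and TUBA1A was called higher (0.21), where 21.6% of genes rose. With aprepitant, which blocks a neuropeptide receptor, and with the nucleoside analog gemcitabine, edgeR and DESeq2 each called 0 of 9 members, and 2 were higher at an unadjusted p under 0.05 with each drug. Of all genes 0.601% were called lower and 1.22% higher with aprepitant, and 0.0% with gemcitabine.

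**Figure D2:**
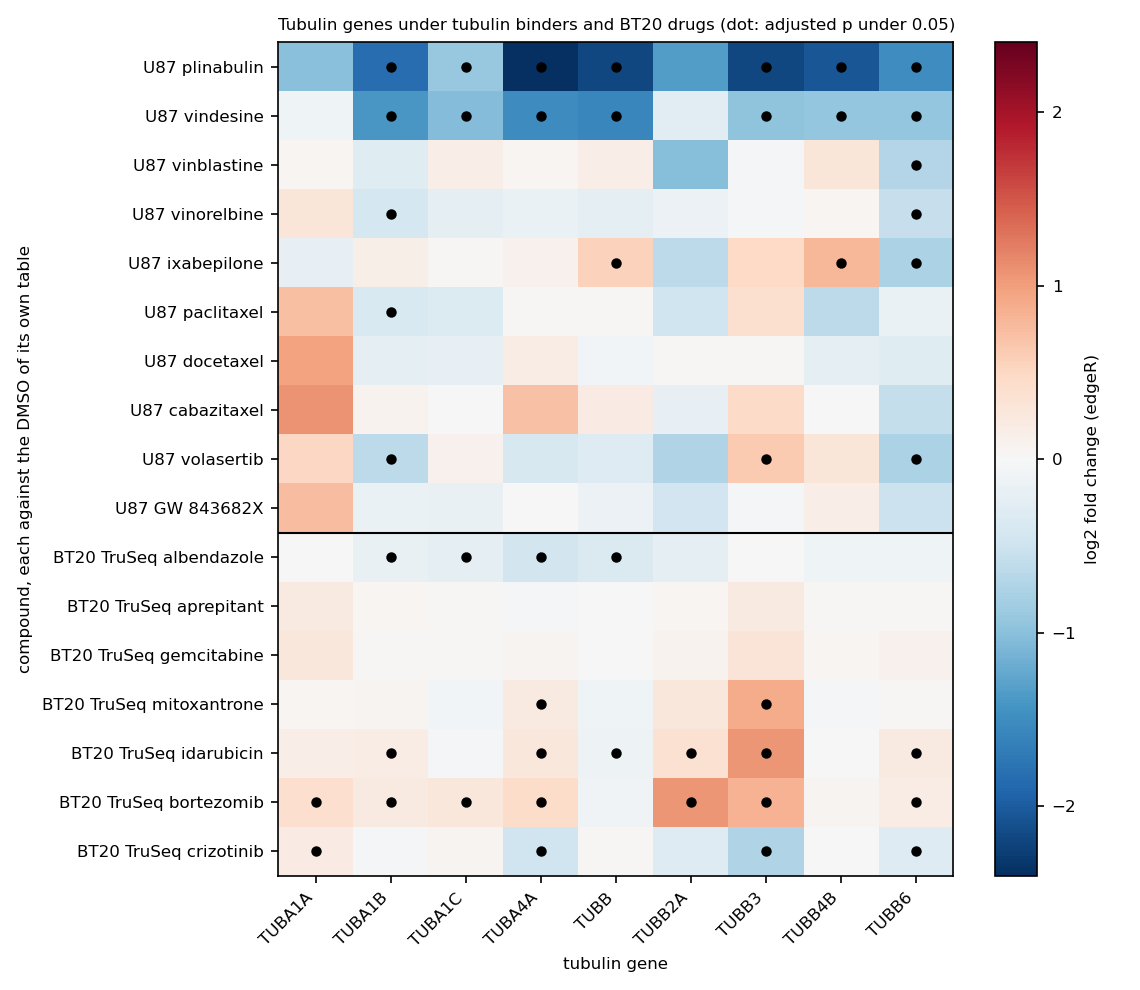
Log2 fold change against DMSO (color, blue lower and red higher) of 9 tubulin genes (columns) with 10 U87 compounds and 7 BT20 TruSeq treatments (rows), where a dot marks an adjusted p under 0.05. The rows of Plinabulin (NPI-2358) and Vindesine sulphate hold 7 dots each, all lower, and the bortezomib row holds 7 dots, all higher.

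Other gene lists were counted in BT20 TruSeq with albendazole, where 4.3% of all genes were called lower and 7.0% higher. Of 13 autoregulation factors (TTC5, SCAPER and CCR4-NOT subunits), CNOT1, the scaffold of CCR4-NOT, was called lower (log2 fold change −0.16, adjusted p = 0.0131) and 0 higher (1 at an unadjusted p under 0.05). Of 20 tubulin folding genes 2 were lower, TCP1 (−0.15) and CCT4 (−0.13), both subunits of the chaperonin that folds tubulin. Of 21 mitotic genes 3 were higher, among them AURKB (0.18) and PLK1 (0.17), and CCNB2 was lower (−0.14). The medians of these 3 lists were −0.08, −0.08 and −0.07. With bortezomib 12 of 20 folding genes rose, where 21.3% of all genes did.

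In U87 cells 7 tubulin mRNAs fell with each of 2 compounds of the second set of the screen, called set 4 in the labels. Plinabulin (NPI-2358), a colchicine-site ligand, was given at 1.567 µM, and Vindesine sulphate, a vinca alkaloid, at 0.023 µM, each in 1 well of plate A and 1 of plate B, beside 4 DMSO wells. TUBB had 908 and 833 CPM in the DMSO wells of plate A and 635 and 614 CPM in those of plate B. It had 264 CPM (plate A) and 236 CPM (plate B) with vindesine and 159 and 154 CPM with plinabulin. Every treated well lay below every DMSO well and below all 4 untreated wells (1013, 859, 726 and 600 CPM). With plate as a term, the log2 fold change of TUBB was −1.56 with vindesine (SE 0.16, adjusted p = 2.07e-09) and −2.19 with plinabulin (SE 0.16, adjusted p = 1.39e-13), or 33.9% and 21.9% of the DMSO level.

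The alpha genes fell with the same compounds. TUBA4A had 188, 221, 184 and 165 CPM in the DMSO wells, 80.3 and 52.7 CPM with vindesine and 45.0 and 23.7 CPM with plinabulin, with no overlap. TUBA1B, which took the most counts of the members and differed between plates, had 12419 and 12410 CPM with DMSO, 5031 CPM with vindesine and 3751 CPM with plinabulin on plate A, and 56378 and 54286, 19480 and 13554 CPM on plate B. Within each plate the order was the same. TUBA1C had 1024, 1120, 842 and 849 CPM with DMSO, 506 and 424 CPM with vindesine and 548 and 440 CPM with plinabulin. The log2 fold changes with vindesine were −1.51 for TUBA4A (SE 0.23), −1.40 for TUBA1B (SE 0.09) and −1.03 for TUBA1C (SE 0.14), and with plinabulin −2.42 (SE 0.25), −1.83 (SE 0.09) and −0.91 (SE 0.14), with adjusted p of at most 1.79e-05.

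Of the further beta genes, TUBB3 had 387, 398, 254 and 291 CPM with DMSO, 164 and 168 CPM with vindesine and 88.1 and 53.7 CPM with plinabulin. TUBB4B had 224, 174, 137 and 160 CPM, then 95.1 and 85.3 CPM, then 56.2 and 26.2 CPM. TUBB6, a beta isotype abundant in U87, had 1153, 1126, 763 and 1007 CPM, then 667 and 405 CPM, then 367 and 321 CPM. All treated wells of these 3 genes lay below all DMSO wells. The log2 fold changes were −0.96, −0.93 and −0.93 with vindesine and −2.19, −2.05 and −1.50 with plinabulin. TUBA1A, at 21.2 to 36.2 CPM with DMSO, had 22.6 and 30.1 CPM with vindesine and 10.3 and 17.5 CPM with plinabulin (adjusted p = 0.197), and TUBB2A, at 12.7 to 20.8 CPM, had 10.2 and 20.1 CPM, then 10.3 and 2.50 CPM, and neither was called. TUBB2B was not tested, with at most 1 count in any of these wells.

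In total, 7 of 9 members tested were called lower and 0 higher with each of these compounds (0 higher at an unadjusted p under 0.05 and by DESeq2 in each), where 1.14% of 8742 genes were called lower and 1.19% higher with vindesine, and 2.53% and 2.75% with plinabulin. The median log2 fold change of the members was −0.96 and −1.83, beside −0.01 and −0.02 over all genes. The comparisons share the DMSO wells and the doses differed, so the values of the compounds are given side by side only. Without the plate term 2 members were called with vindesine and 7 with plinabulin, and without the vindesine well of plate A 5 were called, TUBB3 and TUBB4B being lost.

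**Figure D3:**
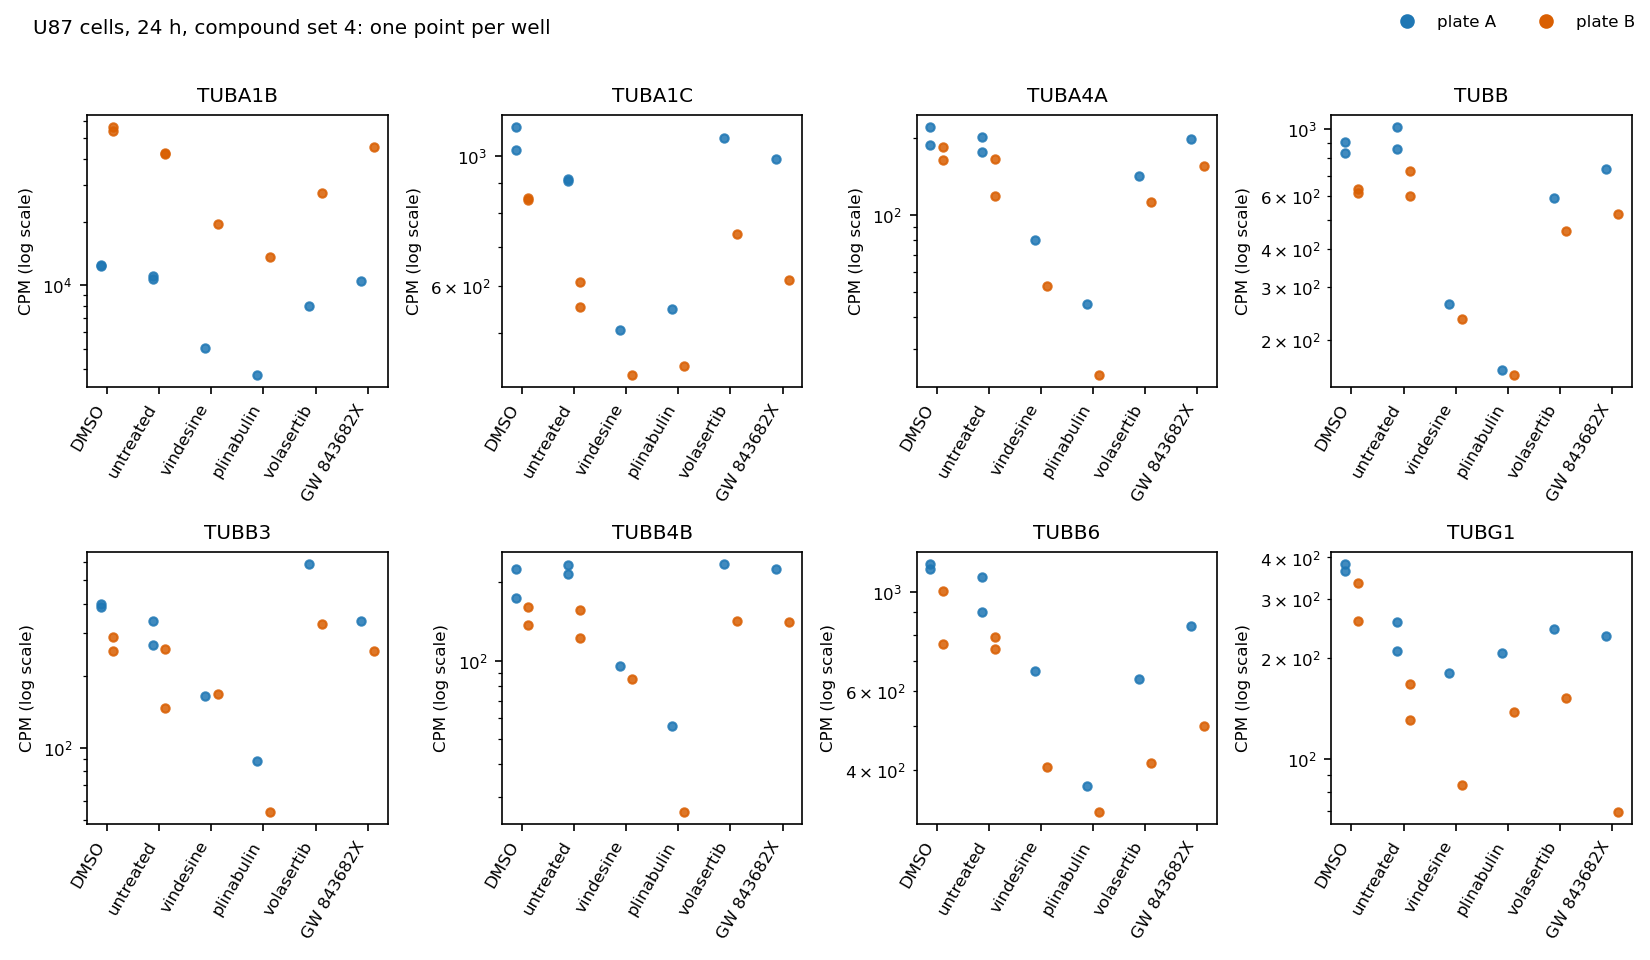
CPM on a log axis of 7 tubulin members and gamma-tubulin TUBG1 in single U87 wells of set 4 treated with DMSO, nothing, Vindesine sulphate, Plinabulin (NPI-2358), Volasertib (BI 6727) or GW 843682X, with plate A in blue and plate B in orange. TUBB sits at 614 to 908 CPM with DMSO, 236 and 264 CPM with vindesine and 154 and 159 CPM with plinabulin.

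Set 4 also held 2 inhibitors of the mitotic kinase PLK1, whose values are given beside these. Mitotic arrest was not measured with any of the 4 compounds. With Volasertib (BI 6727) at 1.328 µM TUBB had 589 and 460 CPM and was not called (log2 fold change −0.31, SE 0.14, adjusted p = 0.256), and neither was TUBA4A, at 143 and 113 CPM (−0.38). TUBA1B, at 8011 CPM on plate A and 27304 CPM on plate B, was lower (−0.63, SE 0.09, adjusted p = 2.95e-06), as was TUBB6 (639 and 414 CPM, −0.76), and TUBB3 was higher (584 and 327 CPM, 0.62, adjusted p = 0.028). That is 2 lower and 1 higher of 9, where 2.37% of genes were called lower and 2.33% higher, without the plate term the count was 0, and without the volasertib well of plate B 1. With GW 843682X at 1.0492 µM TUBB had 737 and 525 CPM, and 0 members were called by edgeR or DESeq2 (1 was lower at an unadjusted p under 0.05), where 0.389% of genes were called lower and 0.538% higher.

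Of the 21 mitotic genes 10 were called higher with plinabulin, among them the kinetochore motor CENPE (log2 fold change 1.89), HMMR (1.62) and the spindle factor TPX2 (1.46), 5 with vindesine, among them CENPE (1.49), CCNB2 (1.01) and TPX2 (0.95), 2 with volasertib, CENPE (1.13) and HMMR (0.99), and 0 with GW 843682X (1 at an unadjusted p under 0.05), and 0 were lower with any of them (4 with vindesine and 1 with volasertib at an unadjusted p under 0.05). Of all genes 2.75%, 1.19%, 2.33% and 0.538% were called higher with the 4 compounds in that order. Of the factors of the pathway CNOT4 was higher with vindesine (1.57, adjusted p = 0.042), RQCD1, now named CNOT9, was lower with volasertib (−0.75), and 0 of 11 tested were called with plinabulin (2 at an unadjusted p under 0.05), while 0 of 18 tubulin folding genes were called with vindesine or plinabulin (1 and 3 at an unadjusted p under 0.05).

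The DMSO wells of U87 had a value of their own that touches these comparisons. DMSO was always in the wells numbered 40 and 41 of a plate, and at these numbers TUBB6 was above its plate median in all 8 wells of the 4 plates by 0.31 to 0.98 on the log2 scale, TUBA1B by 0.06 to 0.50 and TUBG1 by 0.42 to 1.61. TUBG1, which is outside the pathway, was called lower with vindesine (log2 fold change −1.40, adjusted p = 4.29e-05) and plinabulin (−0.94, adjusted p = 0.00444), and also with GW 843682X (−1.15, adjusted p = 0.00521). The levels of TUBA1B and TUBG1 also varied with the well number in untreated LNCaP cells. Over 96 well numbers the log2 CPM of TUBA1B in the 2 LNCaP plates had a Pearson r of 0.948, and its r between the first LNCaP plate and each U87 plate, which held other cells and treatments, lay between 0.376 and 0.748. For TUBG1 the latter lay between 0.571 and 0.706, for TUBB4B between 0.273 and 0.61 and for TUBB between 0.277 and 0.516, while for TUBA4A it lay between −0.104 and 0.157. Between the first LNCaP plate and the BT20 PLATE-Seq wells r was −0.155 for TUBG1, 0.106 for TUBB4B and 0.0575 for TUBB. Same-numbered wells may share a place on the plate and, as the study's primers were specific to a well, a barcoded primer. The same-numbered LNCaP wells may also share a lysate. The source of the pattern was not tested.

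**Figure D4:**
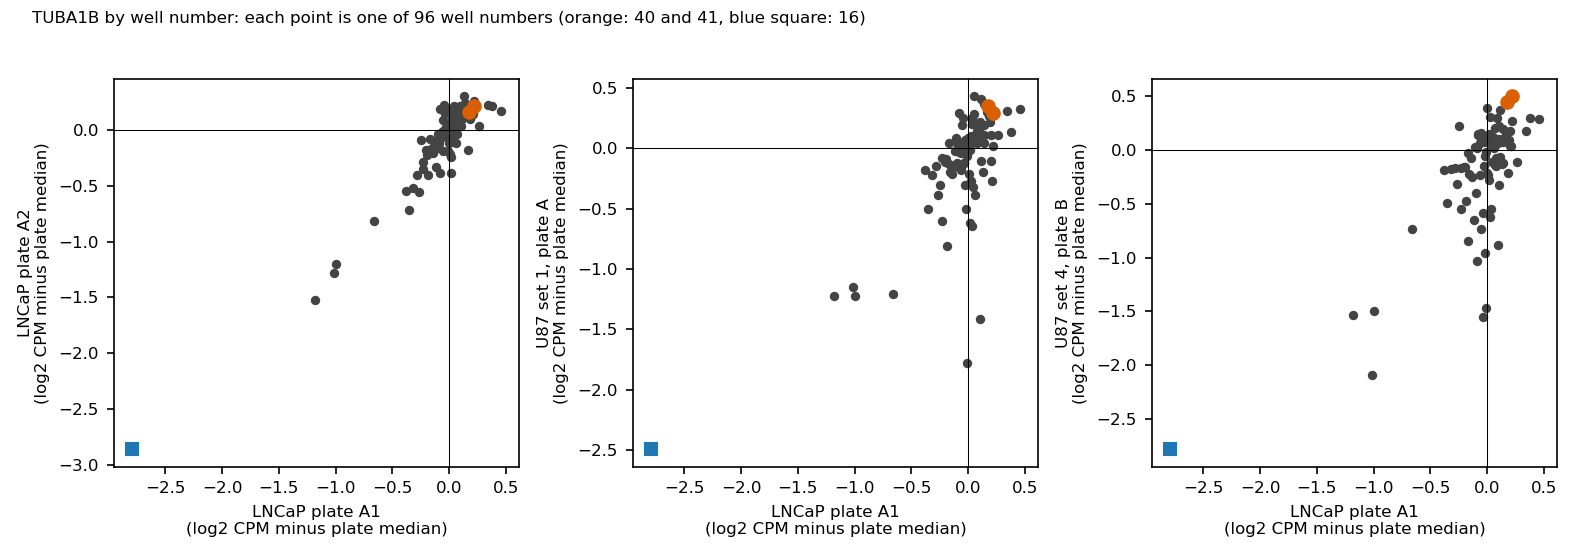
TUBA1B as log2 CPM minus the plate median at each of 96 well numbers, in the first LNCaP plate (horizontal axis) against the second LNCaP plate, a U87 plate of set 1 and a U87 plate of set 4 (vertical axes), with the DMSO wells 40 and 41 in orange and well 16 as a blue square. The points lie along a line between the LNCaP plates (r = 0.948) and more loosely against U87, and well 16 lies at −2.79 and −2.86 in the LNCaP plates.

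To see what this left of the result, U87 wells were refitted together with the wells of the same numbers from the other compound set, with plate and well number as terms and those wells, DMSO and untreated wells as the reference, a fit added after the data were seen. In set 1 the wells numbered as those of vindesine held Pomalidomide, and those numbered as plinabulin held Sunitinib Malate. The values below thus contain what these compounds did. The share of all genes called in this fit is not given here. With plinabulin the same 7 members were called lower, and TUBA1A as well. Their log2 fold changes were −2.24 for TUBB, −2.42 for TUBB3, −2.06 for TUBA4A, −1.89 for TUBA1A, −1.72 for TUBA1B, −1.41 for TUBB4B, −1.40 for TUBB6 and −0.94 for TUBA1C. With vindesine TUBB (−1.37), TUBA4A (−1.25), TUBA1B (−1.23), TUBA1C (−1.09) and TUBB3 (−0.92) were called, while TUBB4B (−0.53) and TUBB6 (−0.51) were not. TUBG1 was then not called by edgeR with vindesine (−0.59, SE 0.27, unadjusted p = 0.0298, adjusted p = 0.533) or plinabulin (−0.37, SE 0.25, unadjusted p = 0.152, adjusted p = 0.688). With vindesine its log2 fold change was still as low as those of TUBB4B and TUBB6. Against the 4 untreated wells instead of DMSO, another alternative added after the data were seen, TUBB and TUBA4A had log2 fold changes of −2.38 and −2.32 with plinabulin and −1.75 and −1.42 with vindesine, and all of the 7 members but TUBB3 with vindesine (adjusted p = 0.058) were called.

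In set 1 of the screen few tubulin mRNAs were called with the tubulin binders. With 2 wells of a compound against 4, simulated data of set 4 gave back 0% of 1.5-fold and 54.5% of 2-fold changes. Set 1 was not simulated. Its fit held the wells of all its tubulin binders together and called some changes under 1.5-fold, given below. Small changes may have been missed in set 1, but how many was not tested. The destabilizers were Vinblastine at 0.0084 µM and Vinorelbine at 0.0021 µM, both vinca alkaloids, and the stabilizers were the taxanes Paclitaxel at 0.0068 µM, Docetaxel at 6.4 µM and Cabazitaxel (Jevtana) at 0.000961 µM and the epothilone Ixabepilone at 0.000518 µM. TUBB had 919 and 879 CPM in the DMSO wells of plate A and 707 and 790 CPM in those of plate B. It had 1156 CPM (plate A) and 700 CPM (plate B) with vinblastine, 702 and 683 CPM with vinorelbine, 913 and 774 CPM with paclitaxel, 855 and 742 CPM with docetaxel, 765 and 932 CPM with cabazitaxel and 1221 and 971 CPM with ixabepilone. Both ixabepilone wells lay above the DMSO wells of their plate, and both vinorelbine wells below them. TUBA4A had 128 and 113 CPM (plate A) and 190 and 221 CPM (plate B) with DMSO, 127 and 208 CPM with vinblastine, 110 and 178 CPM with vinorelbine and 189 and 296 CPM with cabazitaxel.

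With ixabepilone TUBB (log2 fold change 0.56, SE 0.14, adjusted p = 0.0217) and TUBB4B (0.79, SE 0.19, adjusted p = 0.0172) were called higher, 2 of 9 members where 0.46% of genes were called higher and 0.932% lower, and both were also higher against the untreated wells (0.54 and 0.76), though not called with the well number term (0.27 and 0.08). The fit with that term called 0 of 9159 genes with ixabepilone. Without either ixabepilone well 1 member was called in place of 3. The calls of lower members against DMSO in set 1 were all of TUBB6 or TUBA1B, 2 genes whose DMSO wells stood above the plate median. TUBB6 was lower with vinblastine (−0.71), vinorelbine (−0.56) and ixabepilone (−0.75), and TUBA1B with vinorelbine (−0.42) and paclitaxel (−0.37), where 0.261% of genes were called lower and 0.41% higher with vinblastine, 0.249% and 0.808% with vinorelbine and 0.298% and 0.323% with paclitaxel. The TUBA1B call with paclitaxel was lost without any of 3 DMSO wells or either paclitaxel well, the call with vinblastine without its well of plate A, and both calls with vinorelbine without either of its wells. Against the untreated wells none of these 5 was called, the log2 fold change of TUBB6 was −0.11, 0.03 and −0.16 and that of TUBA1B −0.27 and −0.22. With docetaxel and cabazitaxel edgeR called 0 members, 3 and 4 had an unadjusted p under 0.05, and DESeq2 called 0 with docetaxel and 2 with cabazitaxel, where 0.423% and 0.162% of genes were called lower and 0.298% and 0.0994% higher.

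As classes against DMSO, the destabilizers had TUBB6 (−0.63) and TUBA1B (−0.35) called lower, where 0.36% of genes were called lower and 0.671% higher, and the stabilizers TUBB6 (−0.45), where 0.423% and 0.124% were. TUBB differed from DMSO by −0.03 (95% interval −0.26 to 0.21) and 0.18 (−0.03 to 0.38). Comparing the classes with each other does not use the DMSO wells. Between the 4 destabilizer and the 8 stabilizer wells TUBA1B was called lower (log2 difference −0.26, SE 0.07, adjusted p = 0.0158), the single member called of 9, where 0.485% of genes were called lower and 2.21% higher, and it was lost without any of the 4 destabilizer wells or the paclitaxel well of plate B. TUBB differed by −0.20 (95% interval −0.41 to 0.00), TUBA4A by −0.31 (−0.58 to −0.03) and TUBB3 by −0.37 (−0.68 to −0.07), and these were not called after adjustment. With the well number term TUBA1A (−1.18, adjusted p = 0.0434), TUBA4A (−0.71, adjusted p = 0.0121) and TUBB3 (−0.70, adjusted p = 0.0101) were called lower and TUBA1B (−0.10) was not. For vinorelbine that fit used well 87 of the set 4 plates, which held another compound. There TUBA1A stood at 1.90 and 1.02 on the log2 scale against the plate median, TUBA4A at 1.06 and 0.65 and TUBB3 at 0.48 and 0.62. For vinblastine it used well 64, where these genes lay between −0.12 and 0.42. The part of these wells in the calls was not tested. Of the 21 mitotic genes 8 were higher in the destabilizer wells, with CENPE (1.44), CENPF (1.16) and UBE2C (0.81) leading, and 0 lower (0 at an unadjusted p under 0.05). A class of 2 compounds and a class of 4, at unequal doses, are the limit of this comparison.

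Across the screen, the 2 wells of each of 184 compounds were tested against the 4 DMSO wells of their set. At least 1 member was called lower with 98 compounds, at least 2 with 49, at least 3 with 31, at least 5 with 8 and at least 6 with 2, and those 2, with 7 members each, were vindesine and plinabulin. In a limma voom fit of all wells the counts were 129, 75, 38, 5 and 2, and 7 members were again called for the same 2 compounds. The other 6 compounds with 5 members lower, which are named here after their values were seen, were 4 -METHOXYCHALCONE, CELASTROL, Doxorubicin, Mithramycin A, NSC 663284 and OTX015, with between 7.14% and 21.8% of all genes called, against 4.18% with plinabulin and 2.08% with vindesine in the same kind of fit. Of these 6, OTX015 also had 2 members called higher and 4 -METHOXYCHALCONE 1. In the voom fit CELASTROL and NSC 663284 had 3 members lower, Doxorubicin and Mithramycin A 4, and 4 -METHOXYCHALCONE and OTX015 5. Over the screen 1.35% of all tests were called lower and 1.3% higher.

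By gene, TUBB6 was called lower with 79 compounds and higher with 0, TUBA1B with 60 and 0, and TUBA1C with 29 and 0. The voom fit of all wells gave 83 and 0, 108 and 3, and 41 and 0. At an unadjusted p under 0.05 TUBB6 and TUBA1C were higher with 0 and TUBA1B with 2. Over the 184 compounds the median log2 fold change was −0.53 for TUBB6, −0.22 for TUBA1B and −0.14 for TUBA1C, and all compounds of a set share the DMSO wells. TUBB was lower with 15 and higher with 4, TUBA4A lower with 9 and higher with 7, TUBB4B lower with 8 and higher with 10, and TUBB3 lower with 3 and higher with 13. TUBA1A was lower with 0 (2 at an unadjusted p under 0.05) and higher with 9.

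The summed CPM of the 10 members, taken against the plate median and not against DMSO, gave the same place to plinabulin. In set 4 it was lowest of 92 compounds (−1.50 on the log2 scale, 9814 CPM), followed by Talazoparib (BMN673) (−1.49) and Selinexor (KPT-330) (−1.47), with vindesine at place 5 (−1.02). In set 1 the lowest were Mercaptopurine (−1.45), Belinostat (−1.27) and Romidepsin (−1.18). Mercaptopurine and Talazoparib (BMN673) were both in well 16, where TUBA1B of untreated LNCaP cells stood at −2.79 and −2.86 against the plate median, and TUBA1B made up most of the sum. Without TUBA1B, a sum added after the data were seen, plinabulin was lowest of 92 (−1.37), followed by vindesine (−0.90) and selinexor (−0.79). In set 1 the lowest was then Fludarabine (−1.54), in wells of low depth with a minimum of 76948 counts, and the tubulin binders spread from place 21 (vinorelbine) through 60, 62, 66 and 74 (cabazitaxel, docetaxel, paclitaxel and vinblastine) to 86 (ixabepilone). The highest sums of all 10 members were those of Pixantrone (BBR-2778), dimaleate salt (0.33), Nebivolol hydrochloride (0.30) and LY 2183240 (0.26) in set 4, and of Regorafenib (BAY 73-4506) (0.30), Bosutinib (0.29) and Mitotane (0.28) in set 1.

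**Figure D5:**
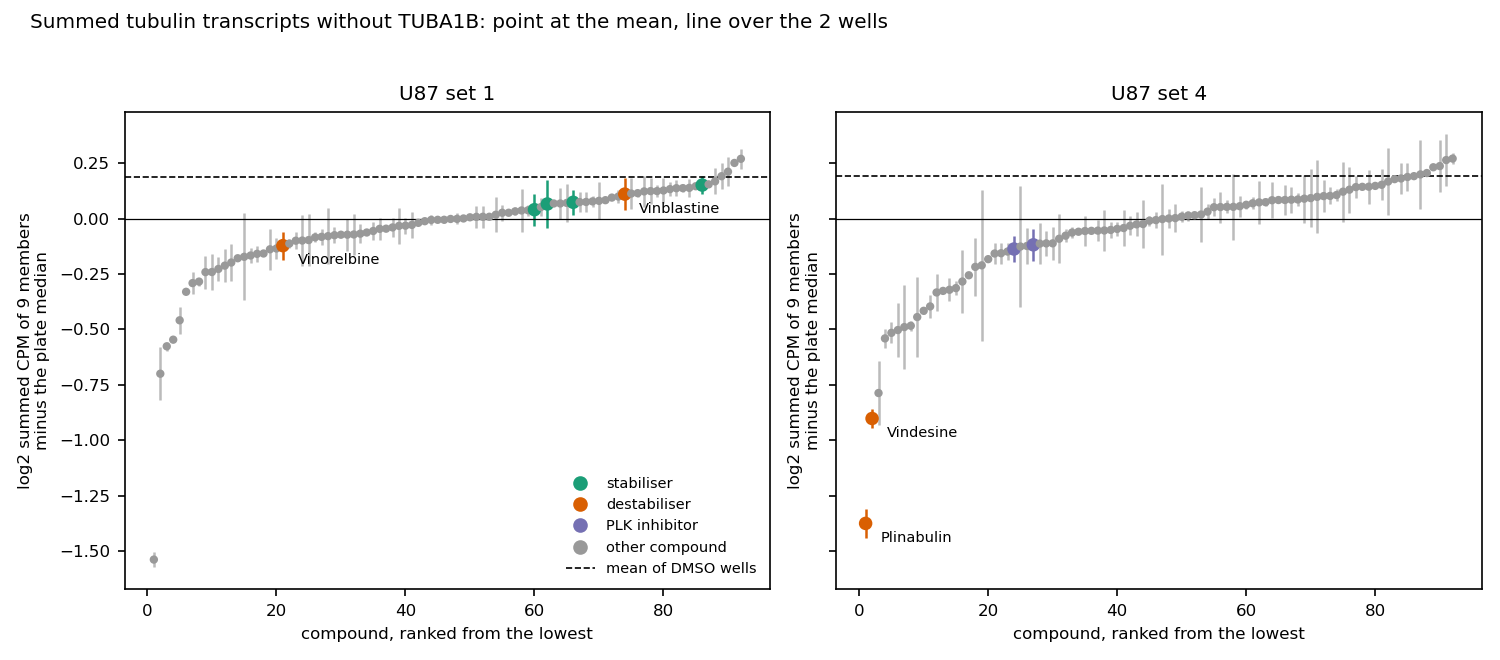
Summed CPM of 9 tubulin genes, TUBA1B left out, for 92 compounds in each U87 set, as log2 difference from the plate median ordered by rank, with a point at the mean and a line over both wells of a compound, the tubulin binders and PLK1 inhibitors in color and the DMSO mean as a dashed line. Plinabulin (−1.37) and vindesine (−0.90) are the lowest of set 4, while the 6 tubulin binders of set 1 lie between −0.12 and 0.15.

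Genes outside the lists whose log2 CPM over the 92 compounds was most like the sum of the 10 members were PHF19 (Pearson r 0.67), DTYMK (0.66), CENPN (0.63), HDGF (0.63) and CCDC109B (0.62) in set 1, out of 5729 genes compared, and MND1 (0.54), KIAA0101 (0.53), TMEM258 (0.52), ZWILCH (0.51) and DNAJC9 (0.50) in set 4, out of 5638. The wells share plates, depth and well numbers, so these values are descriptions, and no gene stood in both lists. These lists depended on TUBA1B. With the sum of the 9 members without it, added after the data were seen, ACTG1 (0.79), AGPAT3 (0.77) and SEMA4B (0.76) led in set 1. In set 4 PGM1 (0.52), SLC2A1 (0.52) and TMEM258 (0.51) led.

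The 3 cell lines used different tubulin isotypes. TUBB6 had a median of 770 CPM in 8 untreated U87 wells (486 to 1078), 32.3 CPM in 12 BT20 DMSO wells (16.8 to 61.4) and 0 over all LNCaP wells (0 to 20.8). TUBB3 had 155 CPM (110 to 339), 23.0 CPM (10.0 to 45.2) and 28.0 CPM (0 to 65.0), and TUBA1A 35.0, 9.26 and 2.22 CPM. These genes were thus highest in U87, with no overlap of TUBB6 or TUBB3 with the other lines, while the BT20 and LNCaP wells of TUBB3 overlapped. TUBB went the other way, with 755 CPM (600 to 1013) in U87, 775 CPM (631 to 1142) in BT20 and 1671 CPM (1081 to 2555) in LNCaP, where every LNCaP well was above every U87 well. TUBA4A had 173 CPM in U87, 99.0 CPM in BT20 and 92.7 CPM in LNCaP, TUBB4B 203, 413 and 178 CPM, TUBA1C 638, 1103 and 1029 CPM, and TUBA1B 24775 CPM in U87 (6851 to 42369, with the plates apart) and 23180 CPM in LNCaP. TUBB2A was at or under 32.7 CPM and TUBB2B at or under 1.09 CPM in these wells.

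Between untreated U87 and LNCaP cells 5 of 8 members tested were called higher in U87 and 2 lower, where 34.2% of genes were called higher and 38.4% lower. The log2 differences were 8.60 for TUBB6, 3.81 for TUBA1A, 2.91 for TUBB3, 1.06 for TUBA4A and 0.36 for TUBA1B, and −0.90 for TUBB and −0.37 for TUBA1C, the last of which turned to 0.02 under the RLE scaling and with DESeq2. The LNCaP wells may hold each culture as 2 preparations. With counts summed per plate 4 members were called. TUBA4A (0.82, adjusted p = 0.0707), TUBA1B (0.13, adjusted p = 0.906) and TUBA1C (−0.61, adjusted p = 0.237) were then no longer called. Between BT20 and U87, both with DMSO, TUBB4B (1.60), TUBA1C (0.82) and TUBB (0.62) were called higher in BT20, where 34.4% of genes were, and TUBB6 (−4.27), TUBB3 (−2.78) and TUBA1A (−1.19) lower, where 33.8% were, besides TUBA1B, which could not be followed in BT20. TUBA4A differed by −0.27 (SE 0.18) and was not called. The fold changes are on the TMM scale, and on the plain CPM scale the medians of TUBB, 775 CPM in BT20 and 811 CPM in U87 with DMSO, did not stand in that order. Cell line, plate, exposure time and annotation table cannot be told apart in these comparisons.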

How the data were processed

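The authors deposited raw read counts per gene symbol. For PLATE-Seq, they aligned reads with BWA to the transcriptome of hg19 (tool and build per the submitters' processing notes) and counted uniquely mapped reads on the correct strand. The alignment and counting of the TruSeq counts are not given in the sources used here. The deposited counts of 688 libraries were used as they stand, after 92 spike-in entries per table were left out. CPM is a gene's count scaled to a remaining total of 1000000. edgeR 4.0.16 in R 4.3.3 (TMM scaling, filterByExpr, robust quasi-likelihood test, Benjamini-Hochberg adjustment over all genes tested, threshold 0.05) gave all fold changes and adjusted p-values. Each BT20 PLATE-Seq drug was fitted with its DMSO wells, the 16 TruSeq pools together, and U87 wells with plate as a term. DESeq2 1.42.0, RLE scaling, no filter, other references, limma 3.58.1 voom and leaving out single wells or pools were the alternatives. The plate term is the replicate block of the U87 screen. BT20 wells were also blocked by runs of 8, although 0 of 12 pairs per drug had a correlation over 0.1. The members, gene lists and tests were chosen with earlier results of these data known. All 10 members were named, and of each other list up to 3 called genes of smallest p, the 3 lowest and highest compounds per set by summed members, and the 5 genes most like that sum among genes with a mean of at least 20 CPM. Well number correlations and sums used log2(CPM + 1). Sequences came from GENCODE and GRCh37. Simulated data were run first for the BT20 wells, the TruSeq pools, 2 U87 wells of set 4 against 4, and BT20 against U87. The other fits were not tested in this way. Of 1.5-fold changes 48.5%, 99.5%, 0% and 0.5% were recovered in that order. Of 4-fold changes 98% were recovered in set 4 and 100% between BT20 and U87. Some marker genes and 1 result of the list of microtubule regulators are not reported here.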

Additional observations from a re-analysis of the deposited data

Results flagged for a closer look

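Of 37 sets of 4 DMSO or untreated U87 wells, 1 gene each, examined for 1 value standing apart from the other 3 by Dixon's test, 1 was found: TUBB2B had 1.09 CPM, a single read, in the third untreated U87 well of set 4, and 0 in the other 3. Chance gives about 1 such group in 20, and TUBB2B was at 0 in nearly all wells of the series.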

How the results depend on the processing

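With plinabulin 7 members were called whichever single well was left out (7 to 7), and with albendazole in TruSeq 4 (4 to 4). Leaving out single wells or pools gave 5 to 7 members called with vindesine, 1 to 3 with volasertib, 0 to 1 with GW 843682X, 1 to 3 with ixabepilone, 0 to 1 with paclitaxel, vinblastine, the stabilizers and the destabilizers against stabilizers, 0 to 2 with vinorelbine and 1 to 2 with the destabilizers. With albendazole in the BT20 wells 1 member, TUBB, was called with all 96 wells, with no filter, with a replicate block of runs of 8 wells (−0.39) and without shallow wells, and 1 was called with crizotinib with no filter. Without the replicate block of plates, 2 were called with vindesine and 0 with volasertib, ixabepilone, paclitaxel, vinblastine, vinorelbine and both classes. In that fit 0 of all 8045 genes tested were called with ixabepilone, paclitaxel, vinblastine and the stabilizers, so these counts say nothing particular to the members. With the well number term 0 were called with ixabepilone, paclitaxel, vinblastine and both classes against DMSO, 1 with vinorelbine and 3 between the classes. With ixabepilone and vinblastine that fit called 0 of all 9159 genes tested. With untreated wells as the reference, or added to it, 0 were called with paclitaxel, vinblastine, vinorelbine and the destabilizers, and 0 with the stabilizers when added. DESeq2 called 2 with cabazitaxel, voom 1 with docetaxel and 2 with vinblastine and the stabilizers, RLE scaling 0 with paclitaxel, and no filter 1 with GW 843682X. Without the 6 most abundant symbols, TUBA1B among them, 0 were called with paclitaxel and between the classes and 1 with vinorelbine and the destabilizers. Counts summed per plate gave 4 between U87 and LNCaP.

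Directions turned in 9 cases. With the well number term TUBB6 with ixabepilone was 0.35 and with the stabilizers 0.27, and TUBA1B was 0.067 with paclitaxel, 0.13 with vinorelbine and 0.009 with the destabilizers. Against untreated wells TUBB6 was 0.0323 with vinorelbine and 0.15 with the stabilizers. TUBA1C between U87 and LNCaP was 0.0232 with DESeq2 and 0.0216 with RLE scaling. Summed members without TUBA1B lay at −1.37 with plinabulin, −0.90 with vindesine, −0.14 with volasertib, −0.12 with GW 843682X, 0.15 with ixabepilone, 0.0737 with paclitaxel, 0.0403 with cabazitaxel and 0.11 with vinblastine. The cause of these shifts was not tested. TUBA1A and TUBB2A had few reads at this depth, so changes like those of the other members may not have been detectable.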

Other observations

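In the U87 screen 2 further compound classes had several tubulin genes called, in both directions. Both were picked after their values were seen and so are given as descriptions. Each range given spans all compounds of the class, called or not. With 5 inhibitors of the kinase MEK (Cobimetinib (GDC-0973, RG7420), Pimasertib (AS-703026), Refametinib (RDEA119, Bay 86-9766), TAK-733 and Trametinib (GSK1120212)) TUBA1A was called higher with 5 of 5, with log2 fold changes from 1.23 to 2.59, TUBA4A with 4 (0.49 to 1.17) and TUBB3 with 4 (0.46 to 1.11). TUBB2A was called higher with 2 of them (0.36 to 2.49). TUBB lay between −0.13 and 0.28 and was called with 0, and TUBA1C was called lower with 3 (−0.95 to −0.21). TUBA1B was also called lower with 3 (−0.61 to −0.06) and TUBB6 with 1 (−0.64 to −0.21). Of all genes, 3.74% to 13.6% were called in either direction with these 5 compounds.

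With 8 inhibitors of histone deacetylases TUBA1B was called lower with 7 (log2 fold changes from −1.91 to −0.28), TUBA1C with 6 (−1.27 to −0.24) and TUBB6 with 6 (−3.07 to −0.39). These ranges and the next again span all 8 compounds, called or not. TUBA1A was called higher with 3 (0.81 to 1.43), and TUBB3 with 2, with its widest change of 3.53 under Romidepsin. TUBB was called lower with 2 of the 8 and TUBB4B with 1, and TUBA4A and TUBB2A were called higher with 1 each. Of all genes, between 0.89% (Rocilinostat (ACY-1215)) and 32.8% (Romidepsin) were called in either direction, with 20.2% for Belinostat. TUBB6 and TUBA1B stood high in the shared DMSO wells, with a median over all compounds of −0.53 and −0.22, while TUBA1A stood below the plate median in 6 of 8 DMSO wells, with a median over all compounds of 0.46 and 49 compounds higher at an unadjusted p under 0.05. The part of the DMSO wells in these values was not tested.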
